A study of Mus musculus with 8 samples.

Results

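Solute carriers are membrane proteins that move nutrients, ions, metabolites and drugs into and out of cells and organelles. In the present data, 211 solute carrier genes of 340 in a table of 17164 genes were expressed in mouse liver. They were the genes whose symbol starts with Slc and a digit and whose FPKM, a read count scaled for transcript length and library depth, was at least 1 in at least 2 of 8 libraries. The rule left out Slc10a1, Slc27a5, Slc51a, Slc51b, Slc1a2 and Slc40a1, 5 of which pass the same threshold, and 124 genes stayed below it. The members were thus chosen by their FPKM levels in the 8 libraries and by name, and 3 of the 5 genes left out above the threshold were called in model vs control (Slc10a1 at −1.41, Slc1a2 at −3.97 and Slc51b at 3.98 on the log2 scale). Of the 211 genes, 188 reached an FPKM of 1 in at least 1 library of every group, 180 did so in all 8 libraries, and 0 reached it in only 1 group. Slc10a6, Slc7a11, Slc25a24, Slc16a3, Slc41a3, Slc24a3, Slc35f2 and Slc5a1, which rose in model vs control, stayed below it in both control libraries. They passed the threshold through groups where they are high, so their rise is not independent of the rule. Just inside the threshold lay Slc10a6, Slc5a3 and Slc24a5, whose second-highest FPKM was 1.00, 1.03 and 1.05. Just outside it lay Slc25a35, Slc22a4 and Slc7a4, at 0.98, 0.97 and 0.95.

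The libraries came from livers of male C57BL/6 mice in 4 groups of 6, with 2 livers per group picked at random and sequenced. The mice of the model group (labelled DEN+CCl4) were injected into the abdomen with diethylnitrosamine (DEN, 0.67%), a liver carcinogen, at 2 weeks of age. On 2 days a week from 8 weeks until they were killed at 22 weeks they were also injected with carbon tetrachloride (CCl4, 20% in olive oil), a liver toxin. Mice of 2 further groups were given DEN and CCl4 in the same way, and a traditional herbal medicine, Diwu Yanggan (DWYG), was added at 17 weeks, at 1 multiple (DWYG-M) or 2 multiples (DWYG-H) of the clinical equivalent dose. Control mice, also killed at 22 weeks, received saline in place of DEN, and whether they received olive oil is not stated. The study asked how DWYG acts on liver cancer in this model. The livers were sampled as whole tissue, so tumour and surrounding liver are not separated, and no group received DWYG without DEN and CCl4.

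Each library held between 17345627 and 19191382 expected counts, and between 10101 and 11556 genes reached an FPKM of 1. Major urinary protein (Mup) genes took 15.3% and 15.4% of counts in control and between 0.563% and 3.5% elsewhere. A smaller share for these genes leaves a larger share of FPKM and TPM for the rest. How much of the shift between scales comes from the Mup genes was not tested. The log2 ratio of FPKM means, model over control, exceeded the TMM-scaled log2 fold change by a median of 0.27 over all genes, a factor of 1.21. FPKM values below are therefore levels. Fold changes and tests come from TMM-scaled counts unless another tool or scale is named. All 8 hepatocyte markers were expressed in every library, and 0 of them passed the test in model vs control. Summed TPM (a length-scaled share of all transcripts) of 8 cholangiocyte markers was 51.2 to 54.8 for control, 472 to 666 for model and 259 to 396 in the DWYG groups, with 5 of 6 tested markers higher in model. Most of that sum was Spp1, and Krt19 had an FPKM of 0.37 and 1.53 for control, 10.1 and 8.54 for model and 1.48 to 2.78 in the DWYG groups, and Epcam 0.83 and 0.93, 6.83 and 7.25, and 1.47 to 2.94. Summed TPM of 8 stellate cell and fibroblast markers was 112 to 113, 384 to 421 and 259 to 317 (5 of 8 rose), and that of 8 macrophage markers 230 to 297, 331 to 523 and 293 to 358 (2 of 8 rose). Proliferation markers summed to 1.67 to 3.22 TPM in control, 46 to 49 for model and 11.2 to 35.6 in the DWYG groups (5 of 5 rose). The 6 neutrophil markers summed to 9.81 to 15.1, 81.5 to 291 and 117 to 326 TPM (3 of 4 tested rose), with Mpo at 0 in both control libraries. The part of these cell types in the transporter results was not tested. In whole liver, fewer cells of a type and less RNA per cell cannot be told apart.

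Hepatocytes import amino acids, fatty acids and drugs from portal blood through carriers in the sinusoidal membrane, and pass metabolites into mitochondria through the Slc25 family of the inner mitochondrial membrane. Proliferating and immune cells are known for carriers of another set, such as the glucose transporter Slc2a1 and the cystine importer Slc7a11. Zinc, copper and heme carriers set the supply of metals that liver stores and distributes.

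A few carriers made up much of the transporter RNA. The highest mean FPKM over the 8 libraries was 489 for Slc27a2, which activates and imports very long-chain fatty acids, followed by 365 for the glutamine transporter Slc38a3 and 348 for the ADP/ATP exchanger Slc25a5. Slc38a4, a neutral amino acid transporter, had 243 and the mitochondrial phosphate carrier Slc25a3 222. The 12 most abundant members held between 42.6% and 53.9% of the members' summed TPM in each library, and the median member had a mean FPKM of 9.71. The members' summed TPM was 6195.5 and 6959.8 for control, 8283.3 and 7328.2 for model, 8054.2 and 8828.2 for DWYG-M, and 7987.9 and 7744.1 for DWYG-H. Both control sums lay below the other 6, on a scale that is itself shifted between control and the treated groups.

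In model vs control, 52 of the 211 members changed (24.6%), against 22.2% of all 11606 genes tested. Among members 32 rose (15.2%, against 15.1% of all genes) and 20 fell (9.48%, against 7.12%), and the median log2 fold change was 0.02, beside −0.01 over all genes. These shares are close to the background and are no result about transporters as a group. Called shares of the classes are given below beside the same 22.2%, and no class was tested as a set. A call is an adjusted p under 0.05 in edgeR's quasi-likelihood test with Benjamini-Hochberg adjustment over all genes tested, and adjusted p-values below are from that test unless another tool is named. Leaving out a library gave 18 called members without control replicate 1, 14 without control replicate 2, 57 without model replicate 1 and 26 without model replicate 2. With each library centred on its median gene in log2(TPM + 1), limma called 43 members (20.4%, against 19.5% of all genes), 48.8% of them higher, where edgeR had 61.5% higher. Over all genes the higher share of calls was 51.6% on that scale and 68% with edgeR. On log2(TPM + 1) without centring, where the median gene moved by 0.50, it called 100 (47.4%, against 46.6% of all genes), 98 of them higher.

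**Figure D1:**
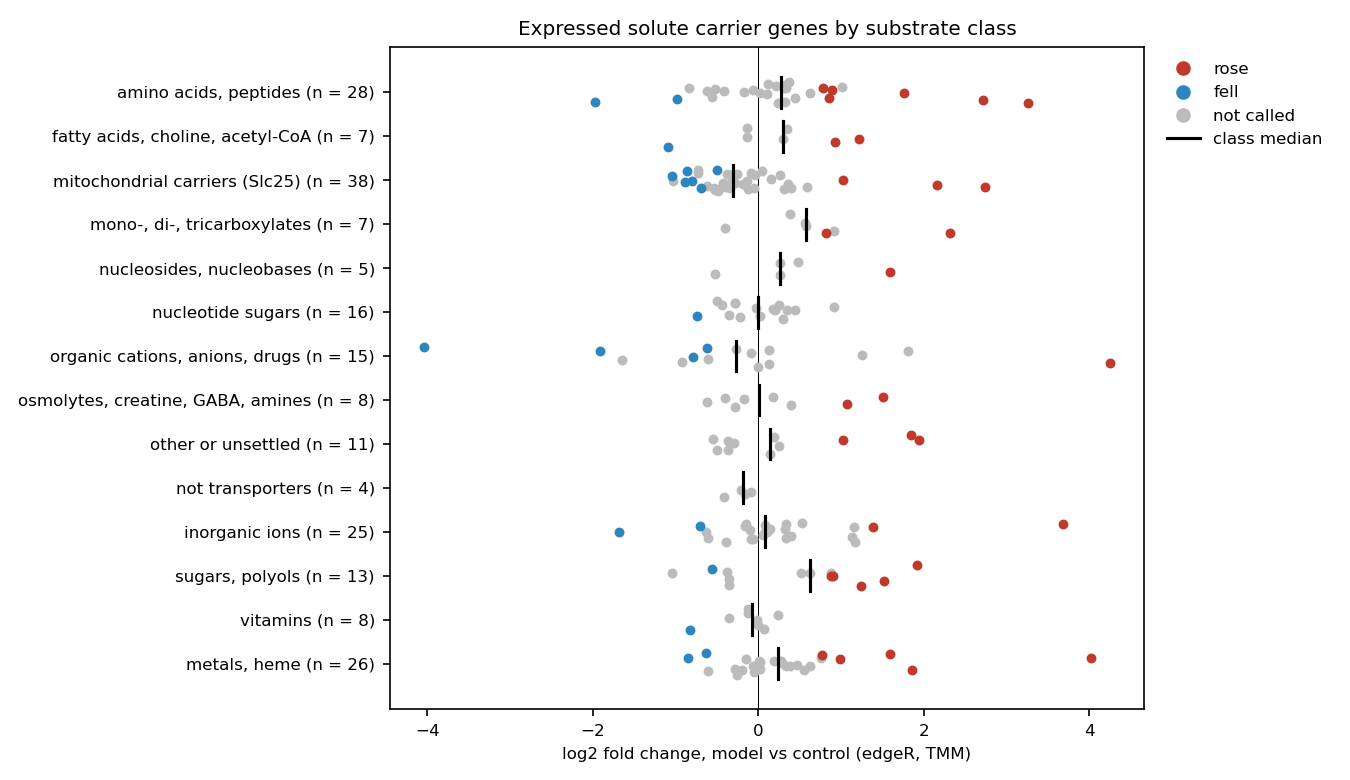
Log2 fold change in model vs control (horizontal axis, TMM-scaled counts, edgeR) of each of the 211 expressed solute carrier genes, in rows by substrate class with the number of genes in brackets. Red points rose, blue points fell, grey points were not called, and black bars are class medians, which ran from −0.31 in mitochondrial carriers to 0.63 in carriers of sugars and polyols. Vertical scatter within a row carries no value.

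Among 28 carriers of amino acids and peptides, 6 rose and 2 fell in model vs control, with a median of 0.27. That is 28.6% called, against 22.2% of all genes. Slc7a11 and Slc1a4 rose the most. Slc7a11, the cystine/glutamate exchanger that supplies cysteine for glutathione, had FPKM values of 0.65 and 0.57 for control, 10.1 and 3.92 for model, 2.24 and 1.46 for DWYG-M and 1.83 and 2.05 for DWYG-H. Both model libraries were the highest of the 8, both control libraries the lowest, and the DWYG libraries lay between without overlap. Its log2 fold change in model vs control was 3.26 (SE 0.40, adjusted p = 0.00208), and 2.57 without model replicate 1. Slc1a4, an exchanger of alanine, serine and cysteine, had 1.81 and 1.47 for control, 10.1 and 15.4 for model, 8.44 and 6.84 for DWYG-M and 13.2 and 10.6 for DWYG-H. Every library with DEN and CCl4 stood above both controls, and those of DWYG-H overlapped those of model. It rose by 2.71 (SE 0.30, adjusted p = 0.00143).

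Slc7a7, the light chain of a cationic amino acid exchanger, rose from 3.42 and 2.43 to 8.92 and 15.3 FPKM (log2 fold change 1.77, adjusted p = 0.00914). The glutamine exchanger Slc1a5 (0.89) and the carriers of large neutral amino acids Slc7a8 (0.78) and Slc43a2 (0.85) rose by less than 2-fold. Slc3a2, the heavy chain that Slc7a11, Slc7a7 and Slc7a8 need at the cell surface, gave 0.22 (SE 0.18, adjusted p = 0.421), a gene singled out after its values were seen. Slc38a4, a sodium-coupled importer of neutral amino acids, had 227 and 285.5 for control and 186 and 132 for model, with no overlap, and fell by 0.98 (SE 0.29, adjusted p = 0.0453). Its DWYG libraries, at 223, 364, 271 and 253, all stood above both model libraries. Slc15a5, a peptide transporter family member of low level, fell by 1.97 (adjusted p = 0.0393), and by 2.83 without model replicate 1. Slc38a3, the most abundant of the class, had 338 and 460 for control and 262 and 401 for model, which overlapped (−0.53, adjusted p = 0.336; 0.04 on TPM values). The calls of Slc1a5 and Slc38a4 were lost without any one of the 4 libraries (adjusted p up to 0.212 and 0.197), that of Slc7a7 without control replicate 2 (adjusted p = 0.0802), that of Slc7a8 without control replicate 2 or either model library (up to 0.203), and those of Slc15a5 and Slc43a2 when either control library or model replicate 2 was left out (up to 0.189 and 0.145).

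Promoter sequence is shown for 3 of the 8 members whose calls held in every alternative fit, in both directions. They are Slc7a11 and Slc1a4, which rose, and Slc22a28, an organic anion transporter described below, which fell. The 250 bases before the RefSeq start on GRCm38.p6, a build other than that of the deposited values, were chr3:50443614-50443863 (minus strand) for Slc7a11, chr11:20332714-20332963 (minus) for Slc1a4 and chr19:8131983-8132232 (minus) for Slc22a28. Capitals mark matches on either strand to 3 motifs, namely the amino acid response element TGATGNAA, the STAT element TTCNNNGAA and the antioxidant response element core TGACNNNGC, and no match overlapped another.
Slc7a11: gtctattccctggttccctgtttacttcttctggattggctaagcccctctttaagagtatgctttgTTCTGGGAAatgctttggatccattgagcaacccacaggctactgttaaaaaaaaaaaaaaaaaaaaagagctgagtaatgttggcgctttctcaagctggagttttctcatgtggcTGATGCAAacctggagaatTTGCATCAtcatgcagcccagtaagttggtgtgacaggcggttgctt
Slc1a4: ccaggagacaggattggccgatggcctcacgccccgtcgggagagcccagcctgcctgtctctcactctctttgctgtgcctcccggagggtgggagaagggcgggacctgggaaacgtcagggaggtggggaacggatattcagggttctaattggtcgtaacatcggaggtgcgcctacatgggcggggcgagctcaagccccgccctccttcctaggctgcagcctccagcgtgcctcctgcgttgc
Slc22a28: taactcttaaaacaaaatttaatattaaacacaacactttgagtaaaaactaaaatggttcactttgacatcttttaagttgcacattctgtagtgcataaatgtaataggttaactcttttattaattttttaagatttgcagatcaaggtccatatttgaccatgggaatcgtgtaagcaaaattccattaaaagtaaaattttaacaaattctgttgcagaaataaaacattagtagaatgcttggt
The Slc7a11 window held TGATGCAA beginning 66 bases before the start, its reverse complement TTGCATCA at 47 bases, and the STAT match TTCTGGGAA at 183 bases. Of 32851 promoter windows of that length, 3.45% held the amino acid response element, 7.02% the STAT element and 10.2% the antioxidant core. The letters TGACNNNGC had no match in the Slc7a11 window. None of the 3 motifs, as spelled here, was in the windows of Slc1a4, Slc22a28 or Slc25a24. Other spellings of the antioxidant core were not searched, so these windows are not shown to lack an antioxidant response element. A promoter was found for 41 of the 50 called members looked up. A match describes letters only.

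Of 13 carriers of sugars and polyols, 5 rose and 1 fell (46.2% called, against 22.2% of all genes). The class median of 0.63 was the highest of the 14 classes. Slc2a1, the glucose transporter GLUT1 of proliferating cells, had FPKM values of 4.27 and 3.59 for control, 8.03 and 9.59 for model, 6.05 and 7.08 for DWYG-M and 6.59 and 8.2 for DWYG-H. Control libraries were the lowest and did not overlap any other group. It rose by 0.91 (SE 0.21, adjusted p = 0.0192). Slc5a1, the sodium-coupled glucose transporter SGLT1, had 0.32 and 0.40 for control and 1.47 and 1.79 for model, and rose by 1.91 (SE 0.34, adjusted p = 0.00766). Slc37a1 and Slc37a2, exchangers of glucose 6-phosphate and phosphate, rose by 1.24 and 1.52, and Slc50a1, a SWEET family sugar transporter, by 0.88. Slc2a2, the abundant glucose transporter GLUT2 of hepatocytes, had 48.5 and 74.1 for control, 68.05 and 48.2 for model, 82.7 and 93.6 for DWYG-M and 54.3 and 62.3 for DWYG-H. Model and control overlapped, and both DWYG-M libraries stood above all others in FPKM. The gap between 82.7 and the control value of 74.1 is smaller than the 1.16-fold by which FPKM sits higher in DWYG-M than in control, relative to TMM-scaled counts. The model vs control value was −0.38 (adjusted p = 0.322). It was 0.26 on TPM values and 0.00 without control replicate 2. The urate carrier Slc2a9 fell by 0.57 (adjusted p = 0.0493), which was 0.03 on TPM values. The calls of Slc2a1, Slc37a1 and Slc50a1 were lost when either control library or model replicate 2 was left out (adjusted p up to 0.123, 0.171 and 0.163), that of Slc2a9 without any of the 4 libraries (up to 0.203), that of Slc37a2 without control replicate 2 (0.0551) and that of Slc5a1 without control replicate 1 (0.0567).

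Of 7 carriers of mono-, di- and tricarboxylates, 2 rose and 0 fell (28.6% called, against 22.2% of all genes, median 0.57). Slc16a3, the lactate exporter MCT4, had FPKM values of 0.31 and 0.15 for control, 1.38 and 1.3 for model, 0.48 and 0.64 for DWYG-M and 0.60 and 1.0 for DWYG-H. The model libraries were the highest and the controls the lowest, and the 2 DWYG groups lay between and overlapped each other. It rose by 2.32 (SE 0.45, adjusted p = 0.011; 2.97 without control replicate 1) on 17 control reads and 108 model reads. Slc16a7, the pyruvate and lactate carrier MCT2, had 10.8 and 10.45 for control, 23.98 and 19.95 for model, 22.2 and 22.8 for DWYG-M and 25.4 and 21.4 for DWYG-H, and rose by 0.81 (SE 0.18, adjusted p = 0.0168). Its DWYG libraries overlapped the model. Slc16a1, the lactate carrier MCT1 and the most abundant of the class, had 24.9 and 18.7 for control and 38.9 and 30 for model (0.39, adjusted p = 0.179). The call of Slc16a3 was lost without control replicate 2 (adjusted p = 0.0808) and that of Slc16a7 without either control library (up to 0.093). Emb, a partner that holds monocarboxylate carriers at the surface, rose by 1.89, from 0.46 and 0.20 to 1.74 and 1.22 FPKM. Bsg, a far more abundant gene on the same list of partners, had 226 and 242 for control and 355 and 640 for model. It gave 0.84 (adjusted p = 0.0946) and was not called.

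Carriers of organic cations, anions and drugs, 15 in number, had 1 that rose and 4 that fell (median −0.27). The called share was 33.3%, against 22.2% of all genes. Slc22a28, a mouse organic anion transporter of the Slc22 family, had FPKM values of 18.6 and 20.8 for control, 1.89 and 1.1 for model, 5.44 and 4.05 for DWYG-M and 2.29 and 2.12 for DWYG-H. Control was highest and model lowest, the 2 DWYG groups lay between, and no groups overlapped. It fell by 4.04 (SE 0.26, adjusted p = 3.9e-04). Slc22a30, another member of that family, had 192 and 153 for control and 83.5 and 28.8 for model, and fell by 1.91 (SE 0.38, adjusted p = 0.0119), and by 2.70 without model replicate 1. Slc22a28, Slc22a30 and Slc22a27 are close relatives, so reads may be shared between them, which would make the value of each uncertain. Sharing of reads was not tested. Slc22a27 gave 1.81 and was not called.

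Slc47a1, the exporter MATE1 that passes organic cations into bile, fell by 0.62 (adjusted p = 0.0374). Its FPKM was 30.02 and 31.8 for control, 26.5 and 21.9 for model, 33.35 and 43.8 for DWYG-M and 41.1 and 39.35 for DWYG-H. On this scale all 4 DWYG libraries lay above all others. FPKM sits 1.16-fold higher in the DWYG groups than in control, relative to TMM-scaled counts. The gap between 33.35 and 31.8 is smaller than that, so the order against control may not hold on TMM-scaled counts. Slc10a6, a carrier of sulfated steroids at the membership threshold, had 0.04 and 0.09 for control, 1.45 and 0.95 for model, 1.0 and 0.43 for DWYG-M and 0.14 and 0.17 for DWYG-H. The 2 control libraries held 3 reads in all and the model libraries 78. Per library total, without TMM scaling, that is a ratio of 24.7 (exact 95% counting interval 8.13 to 122, counting error only). The log2 fold change of Slc10a6 on TMM-scaled counts was 4.25 (adjusted p = 0.00532). Its control and DWYG-H libraries were low, those of model and DWYG-M were higher, and model and DWYG-M overlapped. Slc10a6 is thus a member only through model and DWYG-M, groups where it is high. The call of Slc47a1 was lost without any one of the 4 libraries (adjusted p up to 0.154) and that of Slc22a30 without control replicate 1 (0.0558).

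Among 26 carriers of zinc, copper, manganese, magnesium and heme, 5 rose and 2 fell (median 0.23). This share of 26.9% called is near the 22.2% of all genes. Summed TPM of the class was 446 and 418 for control, 818 and 833 for model, 743 and 627 for DWYG-M and 671 and 644.5 for DWYG-H. Slc39a4, the zinc importer ZIP4, had FPKM values of 21.5 and 23.7 for control, 79.8 and 116 for model, 65.7 and 56.5 for DWYG-M and 53.7 and 57.2 for DWYG-H. Every DWYG library lay between the control and the model libraries. It rose by 1.86 (SE 0.25, adjusted p = 0.00266). Slc48a1, which moves heme out of lysosomes, had 19.7 and 19.5 for control, 70.6 and 71.4 for model, 59.2 and 41.8 for DWYG-M and 53.7 and 46.3 for DWYG-H, in the same order of groups, and rose by 1.59 (SE 0.21, adjusted p = 0.00237).

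Slc41a3, a magnesium carrier, had 0.74 and 0.36 for control and 5.28 and 15.3 for model, with the 2 model libraries far apart, and rose by 4.02 (SE 0.71, adjusted p = 0.00731). Leaving out model replicate 2 gave 2.91, and leaving out replicate 1 of model or of control gave 4.66. Slc11a1, a divalent metal exporter of macrophage phagosomes, rose by 0.98 from 3.91 and 3.6 to 12.3 and 6.3. The summed macrophage markers had 523 and 331 TPM in these model libraries. The 2 macrophage markers that rose, Cd68 and Trem2, had FPKM values of 29.2 and 29.1 and of 10.6 and 13.3. The rest of that list was higher in model replicate 1. Adgre1 had 18.4 and 9.61, Csf1r 33.5 and 24.3 and Cd5l 142 and 92.7. Marco had 11.8 and 4.64, Vsig4 52.4 and 24.7 and Clec4f 62.9 and 32.8. The part of macrophages in the Slc11a1 values was not tested. Slc39a11, a zinc carrier, rose by 0.76. Slc30a1, the zinc exporter of the cell surface, fell by 0.85 from 13.3 and 12.3 to 9.37 and 7.28 (adjusted p = 0.0148), and Slc31a1, the copper importer, by 0.64 from 68.04 and 68.7 to 59.0 and 47.8 (adjusted p = 0.0239). Mt1 and Mt2, the metallothioneins that bind zinc and copper, rose by 4.46 and 5.27, and Flvcr2, a transporter outside the Slc symbols, by 1.47. The calls of Slc30a1, Slc31a1 and Slc39a11 were lost when either control library or model replicate 2 was left out (adjusted p up to 0.0723, 0.113 and 0.147), that of Slc11a1 when either control library or model replicate 1 was left out (up to 0.155), and that of Slc41a3 without control replicate 2 (0.0676).

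**Figure D2:**
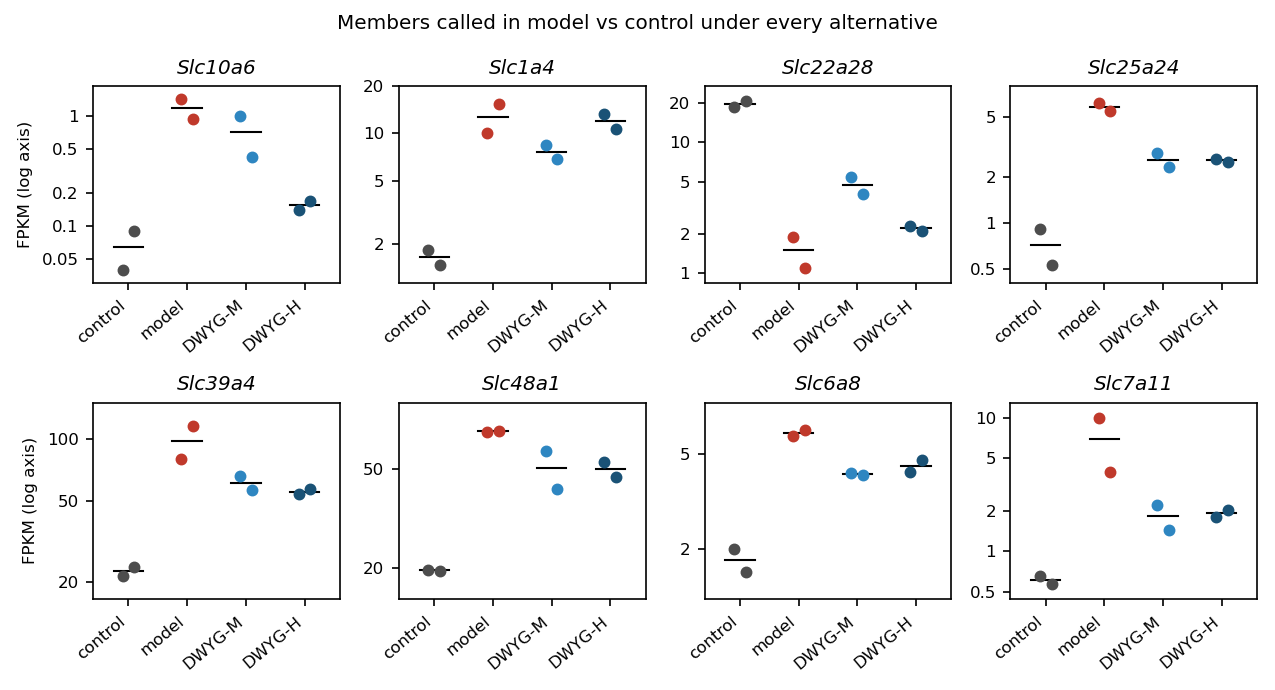
FPKM (vertical log axes, scaled separately per gene) in each of the 2 libraries of control, model, DWYG-M and DWYG-H. Shown are the 8 members whose model vs control call stood in every alternative fit. Points are libraries and bars are group means. For Slc22a28 control is highest, for the other 7 control is lowest, and DWYG libraries of Slc7a11, Slc25a24, Slc39a4, Slc48a1 and Slc6a8 lie between control and model.

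Of 7 carriers of fatty acids, choline and acetyl-CoA, 2 rose and 1 fell (42.9% called, against 22.2% of all genes, median 0.30). Slc27a2 had FPKM values of 576 and 706 for control, 414.7 and 321.5 for model, 437 and 577 for DWYG-M and 530 and 349 for DWYG-H. Both model libraries lay below both controls, and the DWYG-H libraries overlapped the model. It fell by 1.09 (SE 0.29, adjusted p = 0.0315), a call lost without any 1 of the 4 libraries (adjusted p up to 0.148). The choline transporter-like genes Slc44a2 and Slc44a3 rose by 0.93 (adjusted p = 0.00924) and 1.22 (adjusted p = 0.0152), from 2.45 and 2.86 to 6.29 and 5.96 FPKM and from 2.47 and 2.55 to 5.55 and 8.38. The first call did not hold without control replicate 1 (adjusted p = 0.06) and the other without either control library (up to 0.0857).

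Mitochondrial carriers formed the largest class, with 38 members, of which 3 rose and 6 fell, and its median of −0.31 was the lowest. The called share of 23.7% is near the 22.2% of all genes (15.8% fell, against 7.12%, and 7.89% rose, against 15.1%). Slc25a24, a calcium-regulated exchanger of ATP-magnesium and phosphate, had FPKM values of 0.92 and 0.53 for control, 6.13 and 5.48 for model, 2.88 and 2.35 for DWYG-M and 2.66 and 2.51 for DWYG-H. Control was lowest, model highest, and all 4 DWYG libraries lay between with no overlap with either. It rose by 2.74 (SE 0.25, adjusted p = 8.3e-04). Slc25a4, the ADP/ATP exchanger typical of heart and muscle, rose by 2.16 (SE 0.43, adjusted p = 0.0112), from 4.78 and 3.09 to 13.05 and 28.1, and gave 1.37 without model replicate 2. Slc25a5, the abundant ADP/ATP exchanger of liver and a close copy of Slc25a4 with which reads may be shared, had 328.7 and 329.8 for control and 345 and 295.5 for model, which overlapped (−0.31, adjusted p = 0.240; 0.28 on TPM values). Slc25a36, a pyrimidine nucleotide carrier, rose by 1.03 (adjusted p = 0.0496).

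The 6 mitochondrial carriers that fell changed by between −0.51 and −1.05 on the log2 scale. Slc25a42, which imports coenzyme A, fell by 1.05 (SE 0.27, adjusted p = 0.0282) from 18.9 and 25.3 to 14.97 and 11.2 FPKM, and Slc25a16, a related carrier, by 0.89 (SE 0.23, adjusted p = 0.0282) from 30.98 and 23.4 to 23.2 and 12.7. The aspartate/glutamate carrier Slc25a13 (−0.86), the carnitine/acylcarnitine carrier Slc25a20 (−0.81) and the glycine carrier Slc25a38 (−0.51, which was 0.07 on TPM values) also fell. The mitochondrial pyruvate carrier subunits Mpc1 and Mpc2, which have no Slc symbol, gave −0.30 and −0.52 and were not called. Each of these 5 calls was lost without control replicate 2 and also without model replicate 2, all but that of Slc25a42 without control replicate 1, and those of Slc25a20 and Slc25a38 without model replicate 1, with adjusted p up to 0.141 for Slc25a42, 0.13 for Slc25a16, 0.146 for Slc25a13, 0.195 for Slc25a20 and 0.153 for Slc25a38. Of the 3 that rose, Slc25a4 lost its call without control replicate 2 (0.0903) and Slc25a36 when either control library or model replicate 1 was left out (up to 0.235).

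Among 25 carriers of sodium, protons, chloride, bicarbonate, calcium and phosphate, 2 rose and 2 fell (median 0.08). That is 16% called, against 22.2% of all genes. Slc17a4, an organic anion and phosphate carrier, had FPKM values of 6.74 and 7.78 for control, 23.3 and 23.2 for model, 32.2 and 18.3 for DWYG-M and 24.85 and 18.7 for DWYG-H, and rose by 1.38 (SE 0.28, adjusted p = 0.0126). All 6 libraries with DEN and CCl4 stood above both controls. Slc17a2, of the same family, had 122 and 75.1 for control and 56.1 and 23.8 for model, and fell by 1.68 (SE 0.37, adjusted p = 0.0166). The potassium-chloride cotransporter Slc12a7 fell by 0.70 (adjusted p = 0.0291). The sodium/calcium/potassium exchanger Slc24a3 rose by 3.68 (SE 1.1, adjusted p = 0.0479), with 0.10 and 0.14 for control and 0.59 and 2.97 for model. Leaving out model replicate 2 gave 1.94, and leaving out model replicate 1 gave 4.47. Slc17a2 was −2.32 without model replicate 1. The call of Slc17a4 was lost when either control library was left out (adjusted p up to 0.0798), that of Slc17a2 without control replicate 1 (0.0842), that of Slc12a7 without control replicate 2 or either model library (up to 0.143), and that of Slc24a3 when either control library or model replicate 2 was left out (up to 0.254).

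The smaller classes came next, to be read against 22.2% called among all genes. Called shares were 25% for osmolytes, creatine, GABA and amines, 20% for nucleosides and 6.25% for nucleotide sugars. They were 12.5% for vitamins and 27.3% for other or unsettled substrates. Of 8 carriers of osmolytes, creatine, GABA and amines, 2 rose. Slc6a8, the creatine transporter, had FPKM values of 2.0 and 1.6 for control, 5.92 and 6.32 for model, 4.16 and 4.07 for DWYG-M and 4.22 and 4.71 for DWYG-H, with control lowest and model highest, and rose by 1.5 (SE 0.17, adjusted p = 0.00167). The polyamine carrier Slc18b1 rose by 1.07, and Slc6a13, the GABA and taurine carrier that is most abundant in the class, had 108 and 111 for control and 112.7 and 104.8 for model (−0.28, adjusted p = 0.270; 0.31 on TPM values). Of 5 nucleoside carriers, Slc17a9, which loads ATP into vesicles, rose by 1.59 (adjusted p = 0.0343) from 1.8 and 2.69 to 5.76 and 10.1, and Slc29a1, the equilibrative nucleoside transporter ENT1, gave −0.52 (adjusted p = 0.0922; 0.08 on TPM values). Slc17a9 gave 1.00 without model replicate 2. Of 16 nucleotide sugar carriers and relatives, Slc35e3 fell by 0.74 (adjusted p = 0.0443) with overlapping FPKM values, and Slc35b1, an ATP carrier of the endoplasmic reticulum, gave 0.03 (adjusted p = 0.945). Slc35b1 was −0.18 without control replicate 1, −0.20 without model replicate 2, −0.02 with no filter on low values and −0.01 on centred TPM values.

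Of 8 vitamin carriers, the thiamine transporter Slc19a2 fell by 0.83 (SE 0.23, adjusted p = 0.0396). It had 30.3 and 39.1 for control, 29.95 and 18.3 for model, 36.85 and 43.6 for DWYG-M and 31.0 and 34.3 for DWYG-H, and both model libraries were the lowest of the 8. Of 11 carriers with other or unsettled substrates, Slc35f5 rose by 1.02 (adjusted p = 0.0229), Slc16a5 by 1.85 (adjusted p = 0.0264) and Slc35f2 by 1.94 (adjusted p = 0.036). Slc16a5 had 0.91 and 2.97 FPKM for control and 9.75 and 8.16 for model, and gave 1.24 without control replicate 1 and 2.82 without control replicate 2. Slc35f2 had 0.16 and 0.55 for control and 1.93 and 1.2 for model, and gave 1.26 and 3.12 without the same libraries. Slc9a3r1 and 3 further genes that carry a carrier's name but are scaffold or regulatory proteins had 0 calls, with Slc9a3r1 at −0.42 (0.15 on TPM values). Calls were lost without model replicate 2 for Slc18b1, Slc17a9, Slc35e3, Slc19a2, Slc35f5, Slc16a5 and Slc35f2 (adjusted p up to 0.177, 0.169, 0.161, 0.184, 0.138, 0.0765 and 0.125 over all left-out libraries), and for all but Slc19a2 also without control replicate 1. Those of Slc18b1, Slc17a9, Slc35e3, Slc35f5 and Slc19a2 were lost without control replicate 2, and that of Slc35f2 without model replicate 1.

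**Figure D3:**
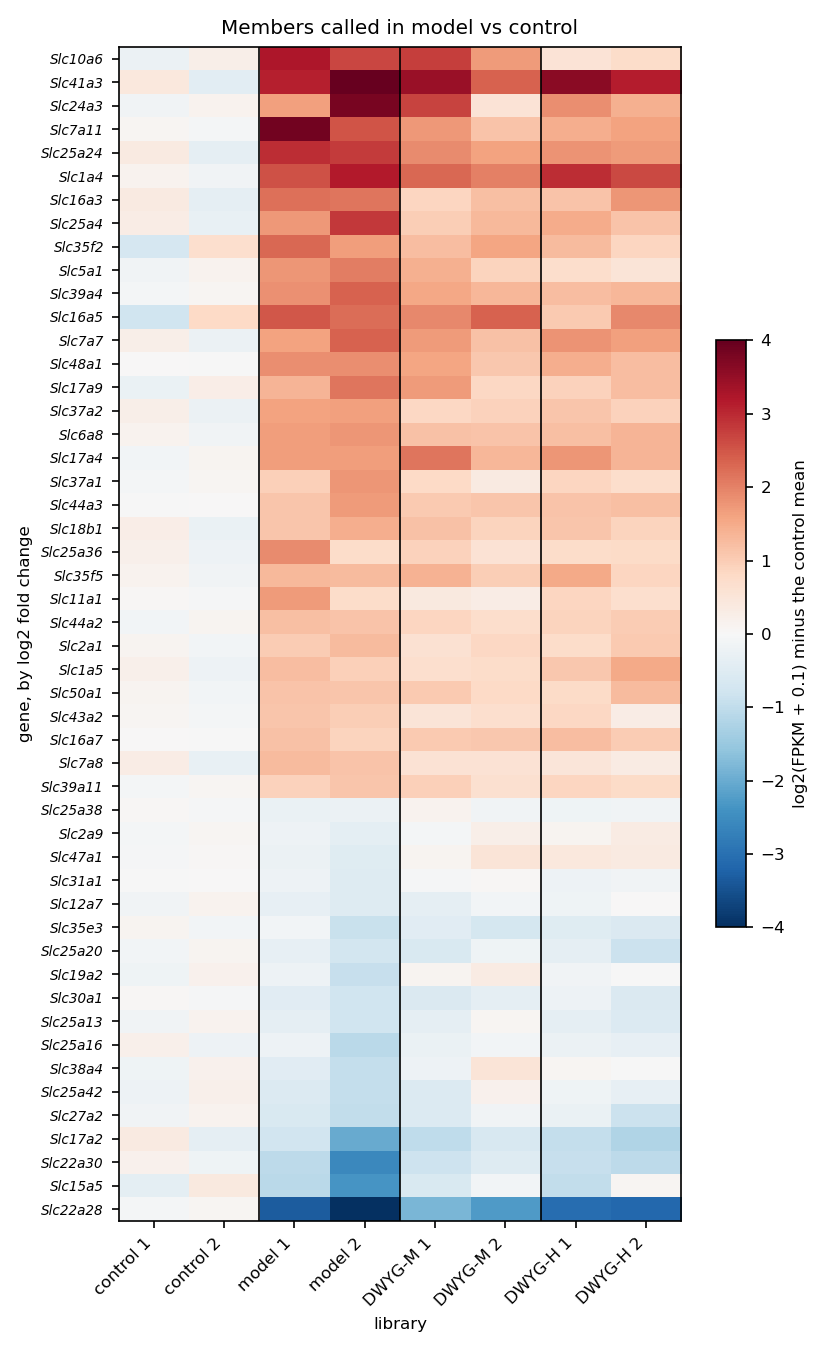
Log2(FPKM + 0.1) minus the mean of the 2 control libraries (colour, limited to −4 to 4) for 50 of the 52 members called in model vs control (rows, ordered by log2 fold change) in the 8 libraries (columns). Red is above and blue below control; Slc10a6 is at the top and Slc22a28 at the bottom, and both are drawn on an FPKM scale, on which the treated groups sit 1.16-fold to 1.21-fold higher than on TMM-scaled counts.

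Both DWYG groups were then compared with model to ask whether the capsules changed transporter RNA in livers given DEN and CCl4. In DWYG-M vs model, 0 of the 211 members were called, against 0.00862% of all genes (1 of 11606), and 33 members (15.6%, against 12.6% of all genes) had an unadjusted p under 0.05. In DWYG-H vs model, 0 members and 0 of all genes (0%) were called, and 22 members (10.4%, against 8.49%) had an unadjusted p under 0.05. DESeq2 called 5 members in the first comparison (2.37%, against 1.77% of all genes) and 4 in the other (1.9%, against 1.03%). Members' medians were 0.06 and −0.02, beside −0.02 and −0.01 over all genes.

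Slc7a11 and Slc25a24, which rose in model, were among the 3 members with the smallest p in both comparisons, and edgeR called neither. Both comparisons and model vs control share the same 2 model libraries. A member picked as high in these libraries tends to look lower in DWYG, so the 3 comparisons are not independent. Slc7a11 gave −1.82 (SE 0.37, adjusted p = 0.213) in DWYG-M vs model and −1.78 (SE 0.37, adjusted p = 0.25) in DWYG-H vs model. All 4 DWYG libraries, at 1.46 to 2.24 FPKM, lay below model replicate 2 at 3.92, itself far below model replicate 1 at 10.1. Without model replicate 2 edgeR called both, at −2.29 (adjusted p = 0.0188) and −2.25 (adjusted p = 0.0329), and without model replicate 1 the values were −1.11 (adjusted p = 0.110) and −1.08 (adjusted p = 0.142). DESeq2 called both with all libraries (−1.81, adjusted p = 5.8e-04, and −1.78, adjusted p = 0.00102). Slc25a24 gave −1.09 (SE 0.23, adjusted p = 0.213) and −1.1 (SE 0.23, adjusted p = 0.25), and DESeq2 called both (adjusted p = 0.0163 and 0.02).

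Slc22a28, which fell in model, gave 1.59 (SE 0.25, adjusted p = 0.213) in DWYG-M vs model and 0.74 (SE 0.26, adjusted p = 0.498) in DWYG-H vs model, and DESeq2 called the first (adjusted p = 6.8e-04). Slc10a6 gave −3.12 (SE 0.58, adjusted p = 0.25) in DWYG-H vs model and −0.63 (adjusted p = 0.620) in DWYG-M vs model, and DESeq2 called the first (adjusted p = 0.0235). In DWYG-H the 2 libraries held 4 reads each, against 45 and 33 for model. DESeq2 also called Slc47a1 in both comparisons, at 0.73 (adjusted p = 0.0372) and 0.78 (adjusted p = 0.0303), and Slc38a4 in DWYG-M vs model at 0.96 (adjusted p = 0.0365), where edgeR gave adjusted p = 0.228, 0.282 and 0.284. The other members called in model vs control lay between −1.56 (Slc24a3, DWYG-H vs model) and 1.32 (Slc15a5, DWYG-M vs model), none called.

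Directly between the doses, DWYG-H vs DWYG-M, 0 members and 0 of all genes (0%) were called by edgeR, 8 members (3.79%, against 1.66% of all genes) had an unadjusted p under 0.05, and DESeq2 called 0 members and 5 of all genes. The smallest p belonged to Slc10a6 (−2.49, SE 0.60), Slc22a28 (−0.85, SE 0.24) and Slc44a1 (0.53, SE 0.18), each with an adjusted p of 1. Slc44a1, a choline transporter, had 13.2 and 11.2 for DWYG-M and 15.4 and 19.8 for DWYG-H, with no overlap. Slc22a28 and Slc10a6 were lower in both DWYG-H libraries than in both DWYG-M libraries, as given above. A difference between doses that misses the threshold does not show that the doses act alike.

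Against control, fewer members were called in the DWYG groups than in model, in comparisons that share the same 2 control libraries. In DWYG-M vs control 8 rose and 1 fell, 4.27% of members against 4.95% of all genes (4.35% rose and 0.603% fell). In DWYG-H vs control 13 rose and 1 fell, 6.64% against 7.69% (6.59% rose and 1.09% fell). Slc22a28 fell in both, by 2.45 (SE 0.23, adjusted p = 0.00382) and 3.30 (SE 0.25, adjusted p = 0.00123), and kept its call without any single library (adjusted p up to 0.0409 and 0.02). Slc1a4 rose by 2.01 (adjusted p = 0.0107) and 2.66 (adjusted p = 0.00337), Slc25a24 by 1.65 (adjusted p = 0.0126) and 1.63 (adjusted p = 0.0105), and Slc6a8 by 0.99 (adjusted p = 0.0201) and 1.1 (adjusted p = 0.011). Slc39a4 rose by 1.22 and 1.08 and Slc48a1 by 1.15 and 1.14. Slc16a7 and Slc17a4 also rose in both, Slc10a6 rose in DWYG-M vs control, and Slc1a5, Slc7a7, Slc44a1, Slc44a2, Slc35f5 and Slc41a3 rose in DWYG-H vs control. Slc7a11 gave 1.44 (adjusted p = 0.083) and 1.48 (adjusted p = 0.06) and was not called. Every call but that of Slc22a28 was lost without at least 1 library (highest adjusted p 0.0988 to 0.199 in the first comparison and 0.0542 to 0.261 in the other). The count fell to 2 without control replicate 1, 1 without control replicate 2 and 1 without DWYG-M replicate 1 in the first comparison, and to 4, 1, 4 and 6 without control replicate 1, control replicate 2, DWYG-H replicate 1 and DWYG-H replicate 2 in the other.

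**Figure D4:**
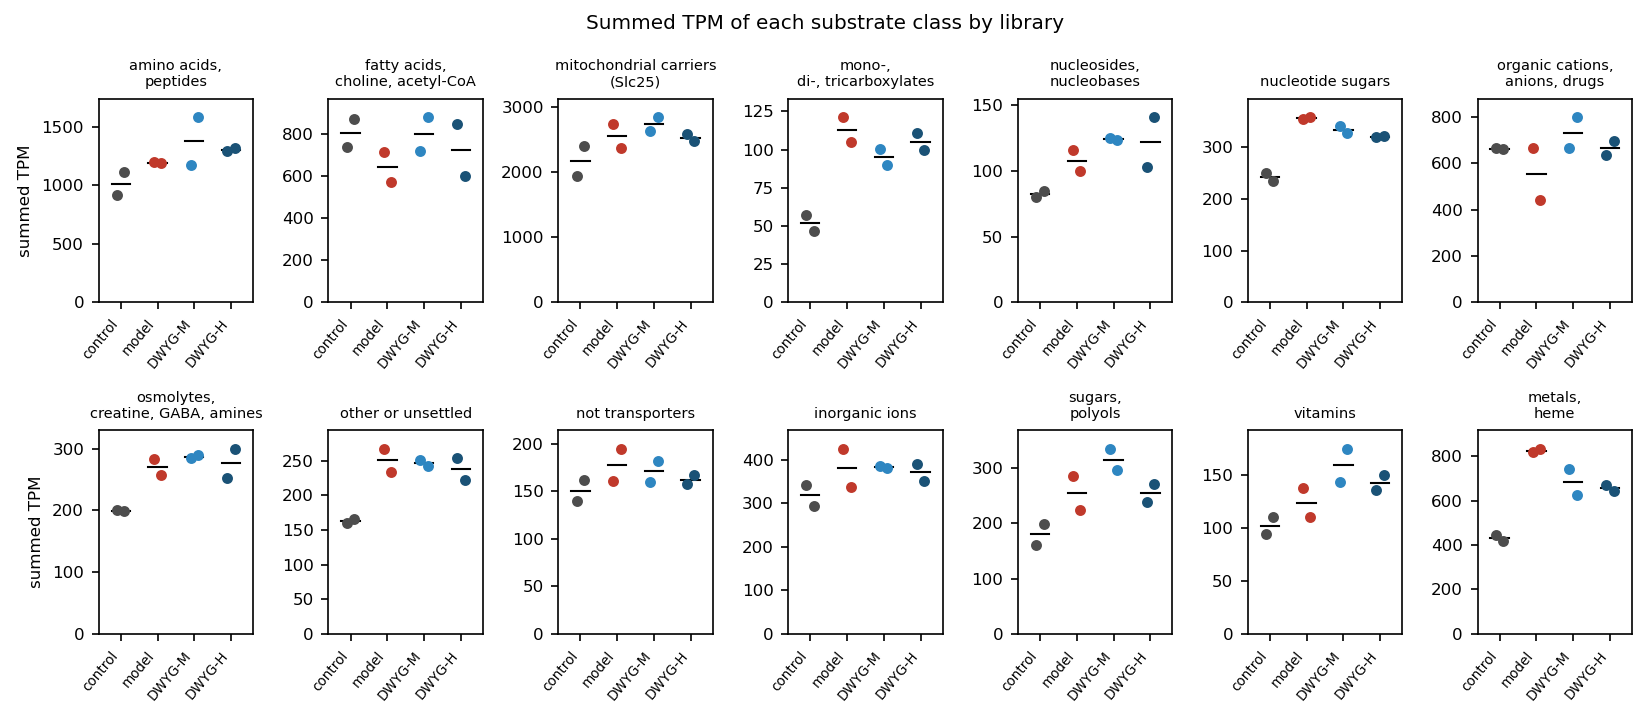
Summed TPM of the members of each of the 14 substrate classes (vertical axes from 0, scaled separately) in the 2 libraries of each group; points are libraries and bars group means. The sum for metals and heme goes from 446 and 418 for control to 818 and 833 for model. On this scale, which is itself shifted between control and the treated groups, most classes are lower in control. Mup genes take a larger share of counts there, and their part in the shift was not tested.

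A list of 37 partners, regulators and transporters without an Slc symbol was read beside the members, and 33 were tested. In model vs control 6 rose and 2 fell (24.2% called, against 22.2% of all genes), which is near the background, and 0 were called in either comparison of DWYG with model. Slco1a1, the organic anion uptake carrier of male liver, fell by 4.53 (SE 0.43) from 170 and 153 to 13.0 and 4.36 FPKM, and Slco2b1, of the same family, fell by 0.99. Nfe2l2, which encodes NRF2, a transcription factor of antioxidant genes that is known to act on Slc7a11, rose by 1.04 (SE 0.18) from 21.7 and 26.9 to 63.1 and 58.1. Mt1, Mt2, Flvcr2 and Emb, named above, also rose, as did Txnip, an inhibitor of glucose uptake, by 0.85.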

How the data were processed

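Whole-liver RNA was sequenced from 8 libraries, made from total RNA with a SMART-Seq mRNA kit per the labels' protocols. Reads were mapped to GRCm39 per the submitters' processing notes, and for aligner, counter and annotation the entry is "not given in the sources used here". The deposited table holds, per the file headers, 4 measures per gene, namely read count, FPKM, TPM and normalized count. Read counts deposited by the authors were handled like expected counts, since between 89.8% and 91.5% were whole within 0.005. The deposited FPKM values set membership and levels, and deposited TPM values class sums. The signal column deposited by the authors as normalized counts was not tested.

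Expected counts were rounded and tested with edgeR 4.0.16 (R 4.3.3, quasi-likelihood, TMM, 1 model of 4 groups, 4 residual degrees of freedom, dispersion 0.0377) over the 11606 genes with FPKM of at least 1 in 2 libraries. SEs were derived from F. DESeq2 1.42.0 and limma 3.58.1 (pseudocount 1) were alternatives. Only the edgeR fit of model vs control was also run on simulated counts. These had the same dispersion for every gene, so that run does not vouch for the calls in the real data.

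Substrate classes came from general knowledge. Members and lists were chosen with earlier results of these data known. Named members are up to 2 per class and direction with the largest called, non-overlapping change and a mean FPKM of at least 5 in a group, the most abundant per class, and the 3 smallest p in each DWYG comparison. Other called members are also named, and a few members are counted but not reported here by name. Promoters are from RefSeq (GRCm38.p6).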

Additional observations from a re-analysis of the deposited data

How the results depend on the processing

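In model vs control, the 52 called members became 56 with DESeq2, 56 with no filter on low values, 52 with Alb and Mup taken out of library totals, 43 on centred TPM values (an alternative chosen after seeing the data), 100 on TPM values without centring, 28 when only the groups compared were fitted, and 47 among the 199 members with a mean FPKM of at least 1. Leaving out 1 library gave 14 to 57. The lone library left in a group is then assumed to vary like the others. The share of higher calls was 61.5%, against 98% on TPM values, 48.8% on centred TPM values, 82.1% with only the groups compared and 60.7% with DESeq2. In DWYG-M vs control the count of 9 became 17 with DESeq2, 57 on TPM values, 5 on centred TPM values and 14 with only the groups compared, and 1 to 6 without 1 library. In DWYG-H vs control 14 became 26, 63, 7 and 26 under the same settings, and 1 to 6 without 1 library. DWYG-M vs model and DWYG-H vs model had 0 calls, 5 and 4 with DESeq2 and 0 to 1 without 1 library. DWYG-H vs DWYG-M had 0 under each setting.

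Of 50 called members reported by name or plotted in model vs control, 8 were called in every alternative fit and without any single library. They were Slc10a6, Slc1a4, Slc22a28, Slc25a24, Slc39a4, Slc48a1, Slc6a8 and Slc7a11. Slc10a6 had the lowest mean FPKM of the 211 members, 0.534. The alternative of members with a mean FPKM of at least 1 therefore leaves it out. Over 737 values of members reported by name, 545 kept their direction and side of the threshold, 169 lost the call, 10 gained one and 13 changed sign. On TPM values the sign changed for Slc25a38 (0.074), Slc25a5 (0.28), Slc29a1 (0.082), Slc2a2 (0.26), Slc2a9 (0.029), Slc38a3 (0.039), Slc6a13 (0.31) and Slc9a3r1 (0.15), on a scale whose median gene moved by 0.50. Slc2a2 ranged from −0.697 to 0.001 without 1 library, the highest without control replicate 2. Slc35b1 ranged from −0.20 (without model replicate 2) to 0.244 (without model replicate 1), with −0.18 without control replicate 1, and was −0.02 with no filter and −0.01 on centred TPM values. The cause was not tested.

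Replicate numbers recur in the labels, which do not say that they pair samples. Correlations of same-numbered deviations were between −0.14 and 0.26 over the 6 pairs of groups. With a replicate block the counts of called members were 46 in model vs control, 0 in both comparisons with model and between the doses, 11 in DWYG-M vs control and 15 in DWYG-H vs control. Few reads stood behind some values, such as 3 control reads for Slc10a6.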

Other observations

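In the 3 groups given DEN and CCl4, replicates differed alike for a few members, and the labels give no batch. Control was left out of this count. Slc38a2, an amino acid importer, had FPKM values of 64.2, 48.3 and 48.9 in replicate 1 of model, DWYG-M and DWYG-H and 25.8, 21.2 and 25.9 in replicate 2. Slc25a32, Slc35g1 and Slc45a3 were also at least 1.5-fold higher in replicate 1 of each of these 3 groups. That is 4 of 211 members (1.9%), against 0.655% of all genes tested, and 0 members were higher in replicate 2 of all 3, against 0.172%. Mt1, a metallothionein, had 314, 285 and 382 in replicate 1 and 142, 97.9 and 103 in replicate 2 of these groups, and 9.44 and 7.47 in control. These values are a description chosen after the data were seen, and their cause was not tested.

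Slc25a47, a liver-enriched mitochondrial carrier of mean FPKM 198, had 104 and 309 for control, 233 and 136 for model, 267 and 210 for DWYG-M and 227 and 102 for DWYG-H, so that its 2 control libraries differed by more than any 2 group means.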
